A study of Mus musculus with 2 samples.

Results

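The genes of antigen presentation by MHC class II were followed through every cell class of 2 single-cell libraries from 4T1 mouse mammary tumours. Members were taken by symbol, and 9 of the 32285 measured genes were chosen. They were 3 chains of the class II molecules (H2-Aa, H2-Ab1, H2-Eb1), the invariant chain Cd74, the peptide-loading factors H2-DMa, H2-DMb1, H2-DMb2 and H2-Oa, and their transcriptional co-activator Ciita. The alpha chain that pairs with H2-Eb1 was not among them. All 9 had UMIs, that is, counts of distinct RNA molecules, in both libraries. The knockout library came from tumours of 4T1 cells given a guide RNA against Kindlin-2, the integrin adaptor encoded by Fermt2, and the control library from tumours of 4T1 cells given a control guide RNA and labelled wild type. 4T1 is a transplantable mammary carcinoma line of BALB/c origin, and both tumours were raised orthotopically in BALB/c females, so the host cells of both libraries were unedited. Tumours of 150 mm3 were dissociated for 45 min, and viable cells were collected by flow cytometry for presence or absence of mCherry before capture with the 10x Genomics 3-prime chemistry. The labels do not say how many tumours were pooled, whether 1 clone was used, or in what proportion the sorted fractions were loaded. Each group was 1 library, so every difference below is between 2 libraries, no test was possible, and the intervals cover counting error only, not the spread between tumours.

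MHC class II molecules are pairs of an alpha and a beta chain that display peptides from the endosomal route to CD4 T cells. They are assembled on the invariant chain Cd74, H2-DM then exchanges the remaining invariant chain peptide for an antigen peptide, and H2-O restrains H2-DM. Ciita does not bind DNA itself. It is recruited to a shared promoter module, the X and Y boxes held by RFX, CREB and NF-Y, and is induced by interferon gamma in many cell types and expressed constitutively in dendritic cells and B cells.

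The promoters of the members with an entry in the RefSeq promoter table (build GRCm38.p6, the mm10 assembly; 250 bases before the annotated start and 50 after it) are shown because this shared module is the route by which Ciita acts on the other members. Letters in capitals mark the Y box core TGATTGG and the X box letters GNAAC upstream of it. GNAAC was marked where 10 to 35 bases lay between the motifs, and both were searched on both strands. The motifs do not overlap.
H2-Aa (chr17:34287774-34288073, minus strand): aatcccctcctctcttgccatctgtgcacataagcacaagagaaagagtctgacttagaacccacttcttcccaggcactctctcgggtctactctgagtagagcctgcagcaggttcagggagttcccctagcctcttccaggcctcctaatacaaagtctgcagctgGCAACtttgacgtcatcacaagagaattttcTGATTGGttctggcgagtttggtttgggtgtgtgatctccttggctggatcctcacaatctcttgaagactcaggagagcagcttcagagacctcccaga
H2-Eb1 (chr17:34305617-34305916, plus strand): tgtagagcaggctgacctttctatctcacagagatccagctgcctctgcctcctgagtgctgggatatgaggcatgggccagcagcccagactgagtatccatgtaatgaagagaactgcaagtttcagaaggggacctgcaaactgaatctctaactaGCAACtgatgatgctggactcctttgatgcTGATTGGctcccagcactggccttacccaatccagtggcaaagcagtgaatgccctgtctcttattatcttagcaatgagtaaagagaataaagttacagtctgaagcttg
H2-DMb1 (chr17:34152941-34153240, plus strand): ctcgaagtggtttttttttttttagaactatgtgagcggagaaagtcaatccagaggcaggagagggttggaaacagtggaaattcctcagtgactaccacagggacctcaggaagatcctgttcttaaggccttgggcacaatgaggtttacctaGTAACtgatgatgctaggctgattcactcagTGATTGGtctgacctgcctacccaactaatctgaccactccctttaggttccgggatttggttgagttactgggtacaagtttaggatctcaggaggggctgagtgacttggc
H2-DMb2 (chr17:34144999-34145298, plus strand): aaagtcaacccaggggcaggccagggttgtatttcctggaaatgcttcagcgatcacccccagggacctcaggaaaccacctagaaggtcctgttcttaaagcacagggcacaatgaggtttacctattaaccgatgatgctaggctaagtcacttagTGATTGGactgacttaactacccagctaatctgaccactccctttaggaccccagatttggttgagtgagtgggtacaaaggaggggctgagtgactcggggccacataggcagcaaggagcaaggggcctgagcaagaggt
H2-Oa (chr17:34092129-34092428, plus strand): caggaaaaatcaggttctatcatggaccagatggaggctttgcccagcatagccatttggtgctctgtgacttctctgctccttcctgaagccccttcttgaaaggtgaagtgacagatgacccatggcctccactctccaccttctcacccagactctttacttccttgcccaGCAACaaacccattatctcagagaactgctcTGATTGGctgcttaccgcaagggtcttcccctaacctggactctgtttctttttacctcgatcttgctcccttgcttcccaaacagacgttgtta
TGATTGG was found in these 5 promoters, and in 7.82% of all 32851 promoters of the table. The pair of both motifs was found in 4 of them (H2-Aa, H2-Eb1, H2-DMb1 and H2-Oa), with 26, 25, 26 and 26 bases between the motifs, against 0.682% of all promoters. In H2-DMb2 only the Y box letters were found in this window. H2-DMa had 2 entries and neither held these letters. A match is a run of letters and was not tested as a binding site. Entries for H2-Ab1, Cd74 and Ciita were not used here.

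In mm10, 7 of the members lie on chromosome 17. H2-Oa (34092340 to 34095234), H2-DMa (34119541 to 34139101), H2-DMb2 (34143307 to 34151555), H2-DMb1 (34153072 to 34160230), H2-Ab1 (34257689 to 34269419) and H2-Eb1 (34305867 to 34316674) lie on the plus strand, and H2-Aa (34282744 to 34287823) lies on the minus strand. Ciita lies on chromosome 16 (10480059 to 10528418) and Cd74 on chromosome 18 (60803848 to 60812652), both on the plus strand. BALB/c mice carry another class II haplotype than the reference strain, so a level of a polymorphic chain can be lowered by mismatches, in both libraries alike. H2-DMb1 and H2-DMb2 are near copies: 29.6% of the runs of 50 bases in the last 600 bases of the H2-DMb1 transcripts also occurred in H2-DMb2 transcripts, and their split is uncertain. No other pair of members shared such a run.

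There were 7250 barcodes (median 15287 UMIs) in the knockout and 8038 (median 21758.5 UMIs) in the control library. After filters and removal of 218 and 211 called doublets, 6744 knockout and 7536 control cells were used, and 13 barcode sequences occurred in both libraries. Fermt2 stood at 13.7 CPM in knockout and 40.3 CPM in control tumour cells. The members together held 827699 UMIs in the knockout and 774007 in the control library, or 4858 and 3807 CPM, that is, UMIs of a gene per 1e6 UMIs of its class or library. Clusters were made without the class II genes and were gated by the level of C1qa (split by Arg1), Ly6c2, Fscn1, Cd209a, Xcr1, Siglech, S100a8, Epcam or Pecam1. The names below mean cells like that type by these markers. The thresholds were set after the clusters had been seen, and 267 knockout and 572 control cells stayed unnamed. A further 217 and 148 cells lay between the macrophage and monocyte gates. In these 3-prime tag counts a UMI is 1 molecule whatever the transcript's length, so levels of different genes are set side by side on the CPM scale.

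**Figure D1:**
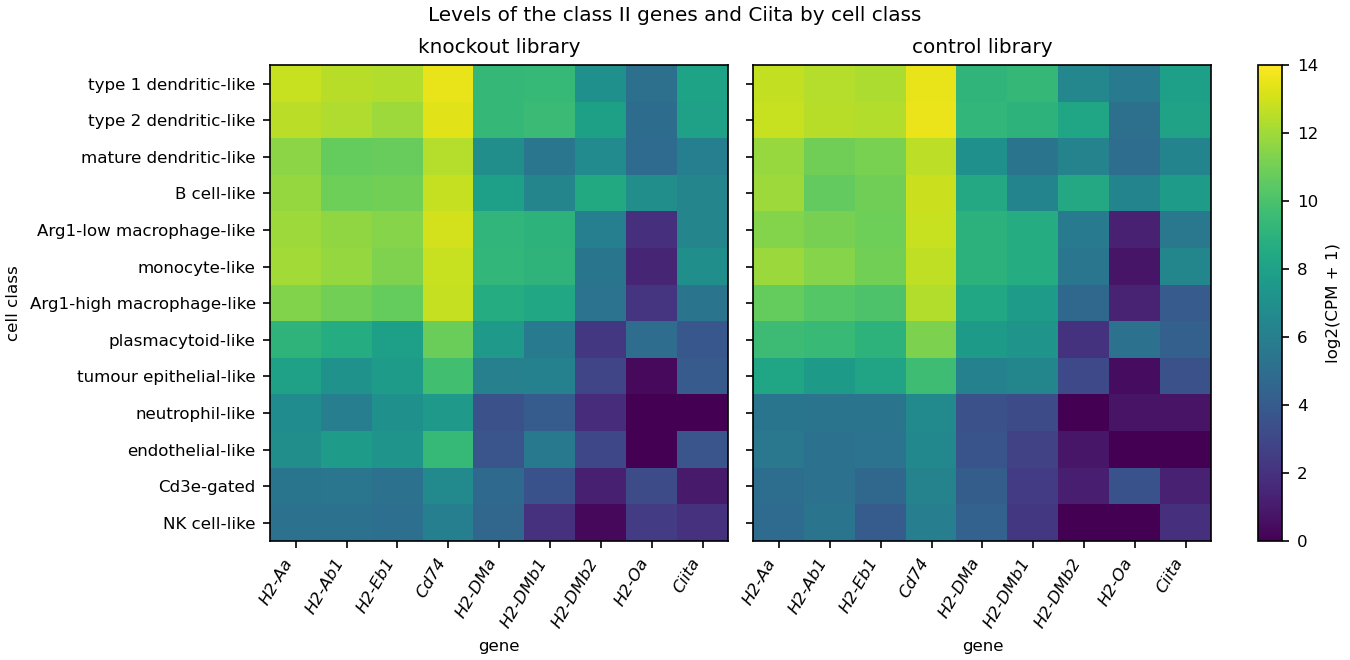
Level of each gene as log2(CPM + 1), UMIs summed over the cells of each class, in the knockout library (left) and the control library (right). Cd74 is the brightest column in nearly every class, H2-Oa is brightest in B cell-like and dendritic-like cells, and the Cd3e-gated, NK cell-like and neutrophil-like classes are dark.

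Dendritic-like cells carried the most class II RNA. The 9 members together stood at 31992 CPM in 122 knockout and 31013 CPM in 50 control type 1 dendritic-like cells (Xcr1-gated, the cross-presenting type), and at 27335 CPM in 98 knockout and 32358 CPM in 39 control type 2 dendritic-like cells (Cd209a-gated). Below them came Arg1-low macrophage-like, monocyte-like and B cell-like cells, with 19827 and 15025 CPM, 18766 and 16291 CPM, and 15511 and 16188 CPM in the knockout and the control library. Mature dendritic-like cells (12285 CPM in the knockout and 14537 in the control library) and Arg1-high macrophage-like cells (14133 and 9838 CPM) had less. Plasmacytoid-like cells had 3319 CPM in the knockout and 4804 CPM in the control library, and tumour epithelial-like cells had 1655 and 1774 CPM. The intervals of neighbouring classes in this order did not overlap, with the exception of B cell-like and monocyte-like cells in the control library, where they ran from 15211 to 17211 CPM and from 16080 to 16504 CPM.

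Classes that should lack class II RNA were among the lowest. NK cell-like cells had 206 CPM in the knockout and 175 CPM in the control library, and Cd3e-gated cells, a class named only by its gate gene, had 275 and 204 CPM. These levels are given for comparison, since RNA from outside a cell can enter its droplet. How much of them came from outside was not tested. A Cd74 UMI was found in 22.0% of 984 knockout and 22.1% of 615 control Cd3e-gated cells, whose median depths were 6459 and 6154 UMIs. After thinning every cell to 1000 UMIs the share was 4.50% of 956 knockout cells and 5.32% of 601 control cells.

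Members differed in where they were found. Cd74 was the most abundant member in all 10 gated classes, at 11965 CPM in knockout and 12034 CPM in control type 1 dendritic-like cells. H2-Oa, the alpha chain of the H2-DM inhibitor H2-O, was highest among the named classes in B cell-like cells. It stood there at 119 CPM in the knockout (interval 71.8 to 186) and 79.1 CPM in the control library (25.7 to 185), on 19 and 5 UMIs. Cluster 36+37.4, of 21 knockout and 14 control cells, was left unnamed and had 104 and 112 CPM of H2-Oa. H2-Oa stood at 28.5 to 52.4 CPM in the type 1, type 2, mature and plasmacytoid dendritic-like classes of both libraries, and at 0.301 to 3.51 CPM in the macrophage-like, monocyte-like and tumour-like classes. H2-DMb2 exceeded H2-DMb1 in B cell-like cells (364 against 81.6 CPM in the knockout and 348 against 79.1 CPM in the control library) and in mature dendritic-like cells (108 against 43.4 CPM and 74.8 against 41.02 CPM). In the macrophage-like, monocyte-like and tumour-like classes H2-DMb1 exceeded H2-DMb2 in both libraries.

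Ciita, the co-activator of the other genes, stood at 281.95 CPM in knockout and 236 CPM in control type 1 dendritic-like cells, at 259 and 264 CPM in type 2 dendritic-like cells, and at 14.9 and 10.05 CPM in tumour-like cells. Plasmacytoid-like cells had 13.03 CPM in the knockout (20 UMIs) and 18.8 CPM in the control library (6 UMIs), and NK cell-like cells 2.98 and 2.85 CPM (12 and 3 UMIs). In the control library type 1 and type 2 dendritic-like cells had overlapping intervals (197 to 281 and 225 to 307 CPM), and so had they in the knockout library (257 to 309 and 235 to 284 CPM). Neutrophil-like cells held 0 Ciita UMIs in the knockout library, which allows a level of up to 3.72 CPM (3 counts over the class total), and 1 UMI in the control library.

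The first comparison asks how class II RNA differed in C1q macrophages of tumours grown from cells given the Kindlin-2 guide. In Arg1-high macrophage-like cells, a class of 81 knockout and 219 control cells in 1 cluster, the members together stood at 14133 CPM in the knockout and 9838 CPM in the control library, a log2 ratio of 0.52 (0.50 to 0.55), or 1.44-fold higher. Ciita stood at 40.9 CPM (70 UMIs) in the knockout and 14.99 CPM (56 UMIs) in the control library, a log2 ratio of 1.45 (0.92 to 1.98), the highest of the members with at least 20 UMIs. H2-Ab1, the beta chain of I-A, had 2090.2 CPM in the knockout and 1260 CPM in the control library (0.73, 0.67 to 0.79). Its partner H2-Aa had 2570.0 and 1658 CPM (0.63), H2-Eb1, the beta chain of I-E, 1674 and 1082 CPM (0.63), and H2-DMb1 325 and 204 CPM (0.67). H2-DMb2 had 39.7 and 25.96 CPM (0.61, 0.15 to 1.08). Cd74 at 6982 and 5260 CPM (0.41, 0.38 to 0.44) and H2-DMa at 408 and 331 CPM (0.30, 0.17 to 0.44) had smaller ratios, with intervals below those of H2-Aa, H2-Ab1 and H2-Eb1.

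Of the 8 members with at least 20 UMIs in this class, 6 were at least 1.5-fold higher in the knockout library and 0 at least 1.5-fold lower. The same count over all 9863 genes was 9.51% higher and 8.52% lower. The median log2 ratio was 0.63 over the 8 members and 0.0059 over all genes. At 2-fold 1 member, Ciita, was counted. H2-Oa was left out of the count, with 6 UMIs in each library. Summed levels of marker lists of other cells also differed in this class, in both directions. For the 7 mature dendritic markers the sums were 53.8 CPM in the knockout and 6.16 CPM in the control library. In each, 1 of these genes was at 0. The 8 neutrophil markers summed to 226 and 662 CPM. The 7 type 2 dendritic markers summed to 174 CPM in the knockout and 120 CPM in the control library, with 1 and 3 genes at 0, and the 7 type 1 dendritic markers to 112 and 183 CPM, with 2 at 0 in each. The 6 B cell markers summed to 6.43 and 6.16 CPM, with 4 and 1 at 0. The part of these cells in the class II ratio was not tested.

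Arg1-low macrophage-like cells held the largest part of the class II RNA of both libraries, 37.4% of all member UMIs in the knockout and 43.2% in the control library. Their 926 knockout and 1213 control cells had 19827 and 15025 CPM of the members together, a log2 ratio of 0.40 (0.39 to 0.41), or 1.32-fold higher in the knockout library. Ciita had 80.97 CPM in the knockout and 47.3 CPM in the control library (0.78, 0.66 to 0.90). H2-Eb1 had 2834 and 1924 CPM (0.56, 0.54 to 0.58), H2-Ab1 3223 and 2207 CPM (0.55, 0.53 to 0.56), and H2-Aa 3893 and 2746 CPM (0.50, 0.49 to 0.52). The loading factors H2-DMb1 (531 and 401 CPM, 0.40), H2-DMb2 (65.5 and 52.8 CPM, 0.31) and H2-DMa (602 and 500.3 CPM, 0.27) and the invariant chain Cd74 (8596 and 7146 CPM, 0.27) had smaller ratios than the chains. H2-Oa stood at 2.69 CPM on 42 UMIs in the knockout and 1.39 CPM on 31 UMIs in the control library (0.95, 0.25 to 1.67).

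All 9 members passed the minimum of 20 UMIs in this class. Of them, 2 (Ciita and H2-Oa) were at least 1.5-fold higher and 0 at least 1.5-fold lower, against 8.79% and 4.75% of 13666 genes. The median was 0.50 over the members and -0.0031 over all genes. The order of ratios, Ciita above the 3 class II chains among the members and these above Cd74 and H2-DMa, was the same as in the Arg1-high class. H2-Oa, on few UMIs, stood outside this order. The C1q macrophage marker list summed to 19301 and 19361 CPM. Within it the gate gene C1qa stood at 3884 CPM in the knockout and 3590 CPM in the control library, and Apoe at 9802 and 10537 CPM. The monocyte list summed to 794 and 566 CPM, the type 2 dendritic list to 225 and 157 CPM, and the tumour list to 1785 and 1246 CPM. No gene of these 3 lists was at 0. Epcam, the gate gene in the tumour list, went the other way, at 3.65 CPM in the knockout and 7.47 CPM in the control library. The part of these lists in the ratio was not tested.

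The class was made of 4 clusters. Cluster 4, with 406 knockout and 561 control cells, had 20458 and 14818 CPM of the members together (0.47), and cluster 3, with 189 and 442 cells, had 18401 and 15207 CPM (0.27). Cluster 25 had few UMIs per cell, a median of 1860.0 in the knockout and 1724 in the control library, and 26477 and 16339 CPM (0.70). It made up 32.7% of the class in the knockout and 15.7% in the control library. The small cluster 5.0, of 28 and 19 cells led by Cd163 and Folr2, markers of resident-like macrophages, went the other way with 7213 and 12824 CPM (-0.83, -0.92 to -0.74). Ciita was higher in the knockout library in 3 of the 4 clusters, as were H2-Aa, H2-Ab1, H2-Eb1 and Cd74. The mean of the 4 cluster ratios was 0.15, and without cluster 25 the class stood at 0.38.

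**Figure D2:**
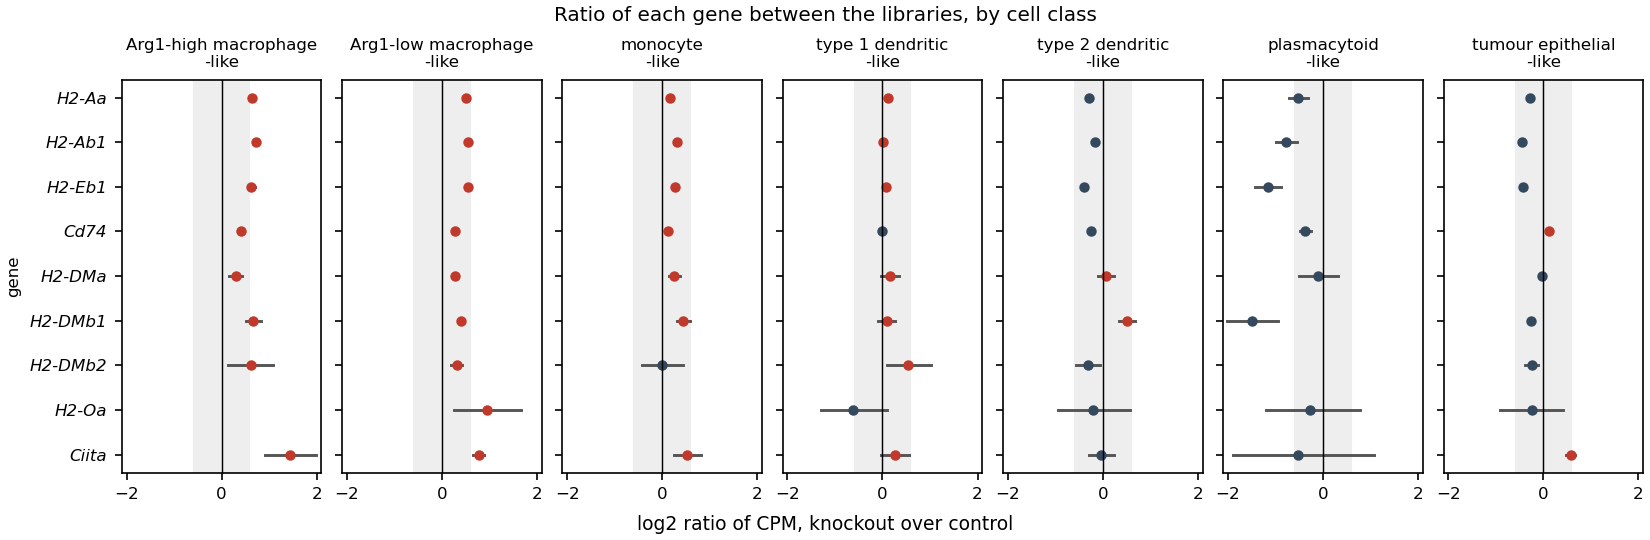
Log2 ratio of CPM, knockout over control, of each gene with at least 20 UMIs in 7 cell classes (points), with exact 95% intervals for counting error (lines) and the zone of less than 1.5-fold difference in grey. Points lie right of 0 in the macrophage-like classes, on both sides of 0 in dendritic-like cells, and left of 0 in plasmacytoid-like cells. In tumour-like cells Cd74 and Ciita lie right of 0 and the other genes left of it.

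Monocyte-like cells differed less. In 445 knockout and 193 control cells the members together had 18766 CPM in the knockout and 16291 CPM in the control library (0.20, 0.18 to 0.23), or 1.15-fold. Ciita had 124 and 85.6 CPM (0.53, 0.24 to 0.83), H2-DMb1 558 and 410.4 CPM (0.44), H2-Ab1 3534 and 2829 CPM (0.32), and H2-Eb1 2521 and 2079 CPM (0.28). H2-Aa (4203 and 3755 CPM, 0.16) and Cd74 (7165 and 6573 CPM, 0.12) were nearest to equal among the abundant members, and H2-DMb2 had 43.2 and 43.5 CPM (-0.010, -0.43 to 0.43). H2-DMa had 616 and 515 CPM (0.26), and H2-Oa had 8 UMIs in the knockout and 1 in the control library. Of 8 members with 20 UMIs, 0 were at least 1.5-fold higher and 0 lower, where 8.84% and 8.05% of 9888 genes were. The summed ratio depended on the mix of clusters. Averaged over the 6 clusters with at least 10 cells in each library it was -0.18, and single clusters ran from -0.58 in cluster 5.9 to 0.24 in cluster 5.11. Within these clusters Ciita was higher in the knockout library in 5 of 6 (median 0.62), as were H2-DMa (median 0.21) and H2-DMb1 (median 0.11), whereas Cd74 was higher in 1 of 6. Cluster 5.8, whose leading genes included the interferon-induced Cxcl9, held 16.2% of knockout and 4.15% of control monocyte-like cells and had 27743 and 29364 CPM of the members. Without the cell with the most member UMIs in each library the ratio was 0.24. Of the marker lists of other cells, the C1q macrophage list summed to 4641 CPM in the knockout and 6131 CPM in the control library. The tumour list summed to 280 and 482 CPM, while its gate gene Epcam stood at 6.70 and 4.996 CPM. The B cell list summed to 34.4 and 104 CPM with 2 and 0 of 6 genes at 0, and the mature dendritic list to 17.5 and 57.1 CPM. Their part in the ratio was not tested.

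Type 2 dendritic-like cells had less class II RNA in the knockout library, and type 1 dendritic-like cells had nearly equal levels. Type 2 dendritic-like cells had 27335 CPM in the knockout and 32358 CPM in the control library (-0.24, -0.27 to -0.22), with 4017 and 5266 CPM for H2-Eb1 (-0.39), 5890 and 7201 CPM for H2-Aa (-0.29), and 10398 and 12401 CPM for Cd74 (-0.25). H2-Ab1 had 5097 and 5743 CPM (-0.17), H2-DMb2 247 and 307 CPM (-0.31, -0.56 to -0.062), H2-DMa 648 and 615 CPM (0.074) and H2-Oa 30.3 and 34.98 CPM (-0.21, -0.95 to 0.58). H2-DMb1 stood apart at 749 and 526 CPM (0.51, 0.33 to 0.69), and Ciita was level at 259 and 264 CPM (-0.029, -0.29 to 0.24). Type 1 dendritic-like cells had 31992 and 31013 CPM (0.045, 0.020 to 0.070), where H2-Ab1 stood at 5719 and 5655 CPM (0.016, -0.043 to 0.076) and Cd74 at 11965 and 12034 CPM (-0.0083). The intervals of H2-Aa (7293 and 6751 CPM, 0.11), H2-Eb1 (5271 and 4998 CPM, 0.077) and H2-DMb2 (131 and 89.9 CPM, 0.55) lay above 0. Those of H2-DMa (629 and 567 CPM, 0.15), H2-DMb1 (669 and 629 CPM, 0.088) and Ciita (0.26, -0.030 to 0.55) did not. Of 9 members, 0 were at least 1.5-fold higher or lower in type 2 dendritic-like cells, against 15.1% higher and 9.20% lower among 8173 genes. In type 1 dendritic-like cells 0 were higher and 1 lower, H2-Oa at 34.3 and 52.4 CPM (-0.61, -1.29 to 0.10), against 14.6% and 9.86% of 7620 genes. A single control cell held 32.1% of the H2-Oa UMIs there. These classes were small in the control library, 39 type 2 and 50 type 1 cells, where 1 cell held 5.83% and 8.51% of the member UMIs. The tumour marker list summed to 326 CPM in knockout and 1006 CPM in control type 2 cells, and to 118 and 875 CPM in type 1 cells. In type 1 cells the neutrophil list summed to 128 CPM in the knockout and 303 CPM in the control library, with 3 and 2 of 8 genes at 0. The part of these lists in the ratios was not tested. Cluster 36+37.5, low in the members (10794 and 12954 CPM), held 21.4% of knockout and 12.8% of control type 2 cells. Summed ratios were -0.16 in cluster 36+37.1, -0.17 in cluster 36+37.2 and -0.26 in cluster 36+37.5. The part of this mix in the type 2 ratio was not tested.

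Mature dendritic-like cells, gated by Fscn1, had 12285 CPM in 79 knockout and 14537 CPM in 33 control cells (-0.24, -0.29 to -0.20). Of 9 members, 0 were at least 1.5-fold higher or lower, against 13.9% and 15.8% of 6035 genes. H2-Eb1 had 1696 and 2287 CPM (-0.43, -0.55 to -0.31), and H2-DMb2 had 108 and 74.8 CPM (0.53, -0.079 to 1.17). H2-Aa had 2979.6 and 3646 CPM (-0.29), H2-Ab1 1659 and 1971 CPM (-0.25), and Cd74 5584 and 6278 CPM (-0.17). Ciita had 65.7 and 79.6 CPM (-0.28, -0.93 to 0.39). Median depth differed, 4154 UMIs in the knockout and 11114 in the control library, and 1 control cell held 12.2% of the member UMIs. Marker lists of other cells also differed: the tumour list summed to 74.3 CPM in the knockout and 671 CPM in the control library, the mammary gland list to 2.48 and 275 CPM, the NK cell list to 7.43 and 209.9 CPM, and the neutrophil list to 109 and 273 CPM, with 1, 4, 2 and 4 genes at 0 in the knockout and 0, 2, 2 and 4 in the control library. Their part in the ratios was not tested.

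Plasmacytoid-like cells, the specialised makers of type I interferon, had less class II RNA in the knockout library. The members together had 3319 CPM in 118 knockout and 4804 CPM in 26 control cells (-0.53, -0.62 to -0.45). Of the 26 control cells, 1 held 10.7% of the member UMIs. H2-DMb1 had 54.7 and 154 CPM (-1.49, -2.01 to -0.95), H2-Eb1 235 and 526 CPM (-1.17, -1.43 to -0.89), H2-Ab1 400.1 and 683 CPM (-0.77, -0.997 to -0.54) and H2-Aa 547 and 783 CPM (-0.52). Cd74 had 1851 and 2400.4 CPM (-0.37), while H2-DMa was nearly level at 183 and 197 CPM (-0.11, -0.51 to 0.31). Of the 8 members with at least 20 UMIs, 0 were at least 1.5-fold higher and 3 (H2-DMb1, H2-Eb1 and H2-Ab1) lower, against 14.9% and 12.7% of 7609 genes. The type 1 dendritic marker list, which shares Flt3 with other dendritic cells, summed to 1492 CPM in the knockout and 1989.9 CPM in the control library. The T cell list summed to 34.5 and 150.4 CPM, with no gene at 0, and the B cell list to 710.2 and 542 CPM. For the neutrophil list the sums were 113 and 9.40 CPM, with 1 and 6 of 8 genes at 0. Their part in the ratio was not tested.

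Tumour epithelial-like cells gave a split result. The members together had 1655 CPM in 2269 knockout and 1774 CPM in 3441 control cells (-0.10, -0.11 to -0.092). Ciita had 14.9 CPM in the knockout (1685 UMIs) and 10.05 CPM in the control library (1436 UMIs), a log2 ratio of 0.57 (0.47 to 0.67), and Cd74 had 879 and 806 CPM (0.13, 0.11 to 0.14). The class II chains were lower in the knockout library: H2-Ab1 had 146 and 199 CPM (-0.45, -0.48 to -0.42), H2-Eb1 212 and 285 CPM (-0.43, -0.45 to -0.40), and H2-Aa 258 and 312 CPM (-0.28, -0.30 to -0.26). H2-DMb1 had 71.3 and 84.9 CPM (-0.25), H2-DMb2 6.48 and 7.65 CPM (-0.24) and H2-DMa 67.6 and 69.5 CPM (-0.039). H2-Oa was at 0.301 and 0.357 CPM. No member reached 1.5-fold: 0 of 9 were higher and 0 lower, against 14.9% and 7.99% of 16816 genes. The median over all genes was 0.095, and with ratios centred on the median of all genes with at least 50 UMIs the members together stood at -0.19.

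The tumour-like class was made of 12 clusters with at least 10 cells in each library, and their mix differed strongly. Cluster 2, led by interferon-induced genes such as Iigp1 and Ifit3, held 16.2% of knockout and 2.09% of control tumour-like cells, and cluster 6 held 0.661% and 12.6%. Within clusters H2-Ab1 was lower in the knockout library in 9 of 12, from -0.81 to 0.48 with a median of -0.53. Cd74 was higher in 10 of 12 (median 0.15), and Ciita was higher in 8 of 12 (median 0.56, from -0.54 to 1.29). The members together were between -0.51 in cluster 23 and 0.74 in cluster 7. Averaged over clusters the ratio was 0.042, and averaged over cells 0.067, so the direction of the summed level in tumour-like cells depended on how cells were weighed. With the Epcam cells of cluster 11 kept in, which were left unnamed because haemoglobin genes and the monocyte marker F13a1 led them, it was -0.11. Irf1, an interferon-induced transcription factor, stood in the same cells at 337 CPM in the knockout and 335 CPM in the control library.

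Macrophage and leukocyte genes were measured in tumour-like cells beside the members. C1qa, the macrophage gate gene, stood at 5.60 CPM in knockout and 4.71 CPM in control tumour-like cells, and there were 157 Cd74 UMIs to 1 C1qa UMI in the knockout and 171 in the control library, against 2.21 and 1.99 in Arg1-low macrophage-like cells and 3.84 and 4.597 in Cd3e-gated cells. The ratio was 135 and 383 in plasmacytoid-like cells, 561 and 119.5 in B cell-like cells and 136 and 18.5 in endothelial-like cells. The part of macrophage RNA in these levels was not tested. The leukocyte gene Ptprc was at 2.76 and 2.00 CPM. Thinned to 1000 UMIs, 48.2% of 2265 knockout and 41.0% of 3429 control tumour-like cells had a Cd74 UMI, beside 4.50% and 5.32% of Cd3e-gated cells. Before thinning they were 91.0% and 85.3% (median depths 41319 and 36046 UMIs), with 4 and 12 cells too shallow to thin. H2-Ab1 was found in 14.2% of knockout and 14.6% of control cells after thinning (72.5% and 67.7% before), beside 3.45% and 2.995% of Cd3e-gated cells.

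**Figure D3:**
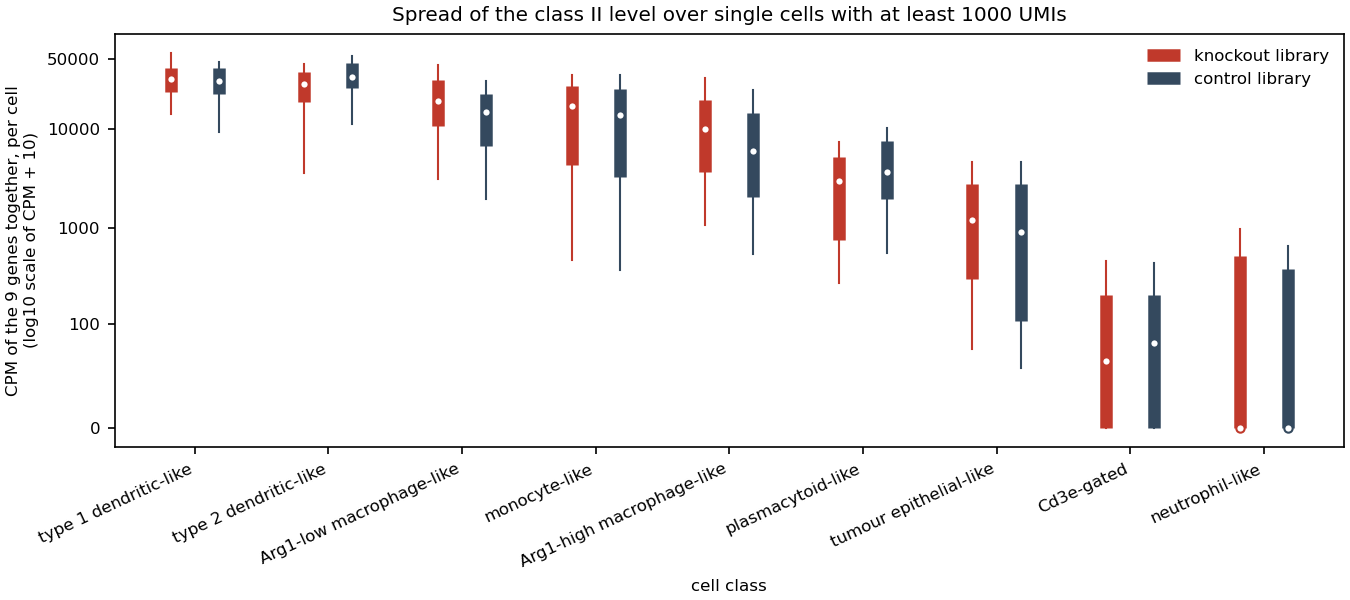
CPM of the 9 genes together in single cells with at least 1000 UMIs, on a log10 scale of CPM + 10, for 9 cell classes in the knockout library (red, left) and the control library (blue, right). Circles are medians, thick bars the middle 50% of cells and thin lines the 10th to 90th percentile. Tumour-like cells span the range from 51.6 to 4637 CPM between these percentiles in the knockout and from 30.1 to 4657 CPM in the control library.

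Tumour-like cells varied more among themselves than the libraries did. The 10th, 50th and 90th percentiles of the members' summed level were 51.6, 1223 and 4637 CPM in knockout cells and 30.1, 912 and 4657 CPM in control cells. The 25th percentile was 306 CPM in the knockout and 107 CPM in the control library, and the 75th was 2823 and 2787.5 CPM. The lower part of the distribution differed more between the libraries than the upper part. No member UMI was found in 2.56% of knockout and 6.42% of control tumour-like cells with at least 1000 UMIs. In Arg1-low macrophage-like cells the whole distribution was shifted, with 10th, 50th and 90th percentiles of 3157, 18878 and 43645 CPM in the knockout and 1978, 14891 and 30362 CPM in the control library. On a log scale type 1 dendritic-like cells spanned a narrower range. Their 10th and 90th percentiles were 14137 and 58501 CPM in the knockout and 9282 and 47379 CPM in the control library.

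**Figure D4:**
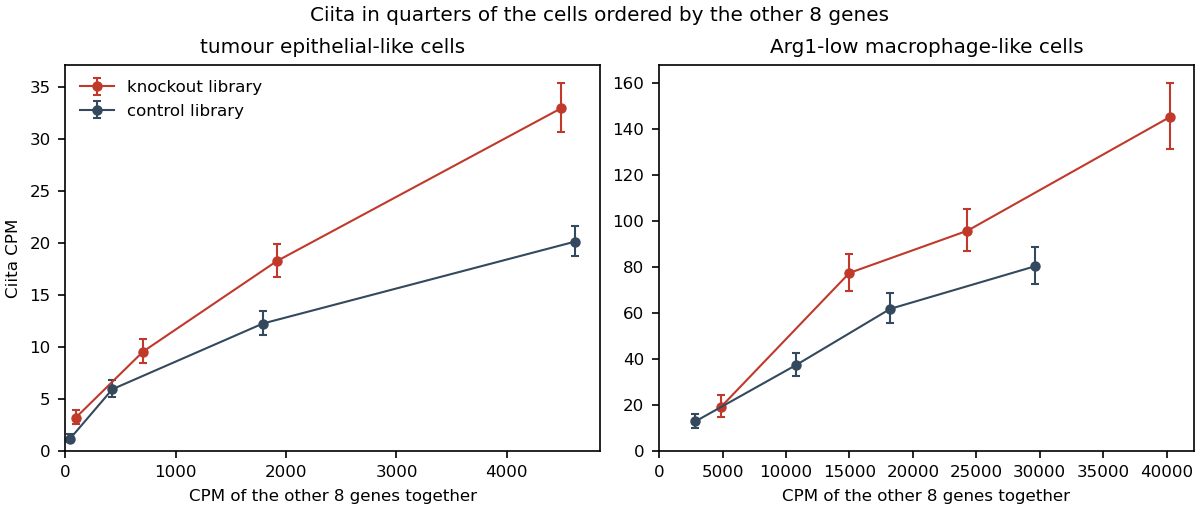
Ciita CPM (y axis, exact Poisson 95% intervals) against the CPM of the other 8 genes together (x axis) in 4 equal bins of the tumour-like cells (left) and Arg1-low macrophage-like cells (right), ordered by the other 8 genes within each library. Ciita climbs with the other genes in both libraries, and the knockout points of the upper bins lie above the control line.

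Within each library Ciita followed the other members from cell to cell. In tumour-like cells ordered by the other 8 members and cut into 4 equal bins, Ciita went through 3.18, 9.54, 18.2 and 32.9 CPM from the lowest to the highest bin of knockout cells and through 1.16, 5.92, 12.2 and 20.1 CPM in control cells. The top bins had nearly the same level of the other members, 4493 CPM in 567 knockout and 4617 CPM in 860 control cells, and Ciita differed there by more than counting error (30.6 to 35.3 CPM in the knockout against 18.7 to 21.6 CPM in the control library). Their median depths were 35582 and 37025 UMIs, and C1qa was at 10.03 and 5.26 CPM. In Arg1-low macrophage-like cells Ciita was at 19.02, 77.4, 95.7 and 145 CPM in knockout and at 12.8, 37.4, 61.7 and 80.2 CPM in control bins. Median depths of these bins, from the lowest to the highest, were 10700.5, 20544, 20590 and 8118 UMIs in the knockout and 18436, 19529, 19712 and 17097 UMIs in the control library. The bins of a library share its free RNA, so this order is a description and has no test.

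**Figure D5:**
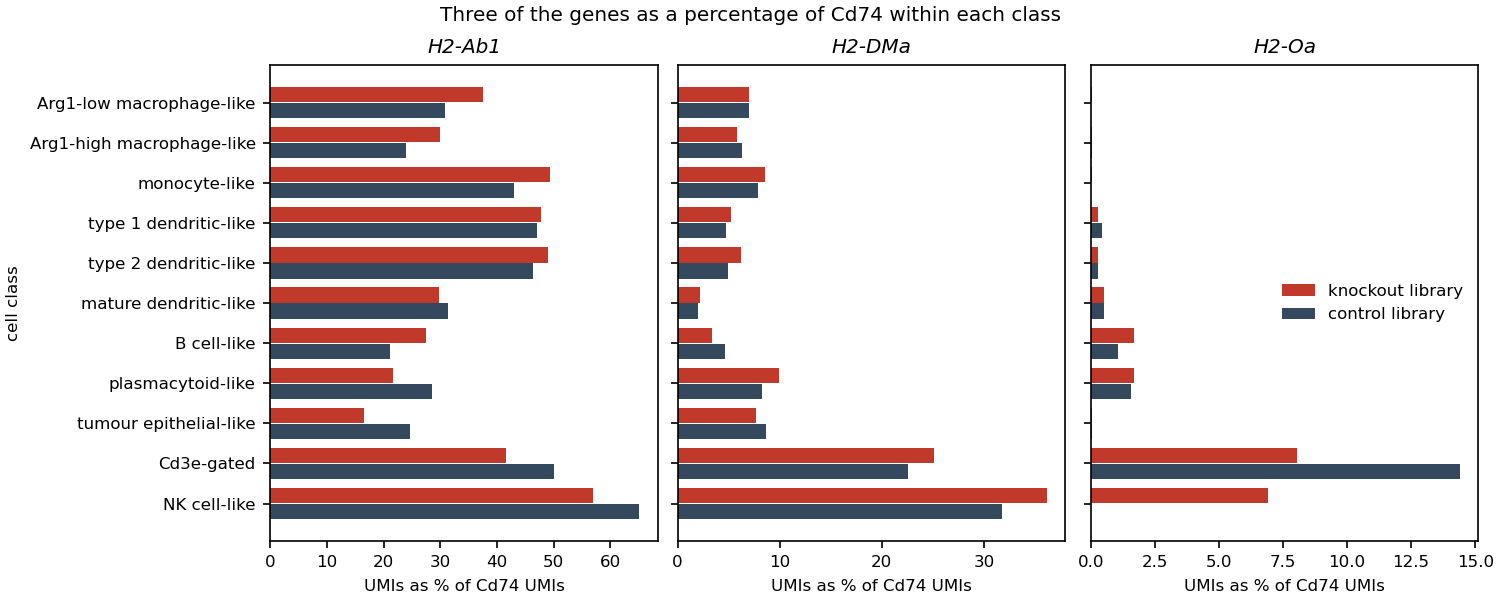
UMIs of H2-Ab1, H2-DMa and H2-Oa as a percentage of Cd74 UMIs within each class, knockout library above control library. H2-Ab1 is lowest per Cd74 in tumour-like cells of the knockout library, H2-DMa is highest per Cd74 in NK cell-like cells, and H2-Oa in Cd3e-gated cells.

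Ratios between members set the classes apart. H2-Ab1 UMIs came to 16.6% of Cd74 UMIs in knockout and 24.7% in control tumour-like cells, to 37.5% and 30.9% in Arg1-low macrophage-like cells, to 49.3% and 43.04% in monocyte-like cells, and to 47.8% and 47.0% in type 1 dendritic-like cells. So per Cd74 the beta chain was lower in the knockout library in tumour-like cells and higher in macrophage-like cells. H2-DMa was at 7.69% and 8.62% of Cd74 in tumour-like cells and at 7.005% and 7.001% in Arg1-low macrophage-like cells. In Cd3e-gated cells it was at 25.1% and 22.6%, and in NK cell-like cells at 36.2% and 31.8%. H2-Oa was at 8.06% of Cd74 in knockout and 14.4% in control Cd3e-gated cells (68 and 51 UMIs), above the 1.69% and 1.05% of B cell-like cells and the 0.031% and 0.020% of Arg1-low macrophage-like cells. In Cd3e-gated cells 4.41% and 5.88% of these H2-Oa UMIs came from the cell with the most, and Cd79a, the B cell gate gene, was at 1.97 and 0.210 CPM.

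Neutrophil-like and endothelial-like cells held little class II RNA. Neutrophil-like cells had 520 CPM (419 UMIs) in 273 knockout and 243 CPM (361 UMIs) in 564 control cells, a log2 ratio of 1.10 (0.89 to 1.30). The monocyte list summed to 1641 CPM in the knockout and 886 CPM in the control library there, with 1 and 0 of 7 genes at 0, and the type 1 dendritic list to 145 and 65.9 CPM, with 1 and 3 of 7 at 0. Their part in the ratio was not tested. A Cd74 UMI was found in 10.5% of knockout and 8.70% of control cells after thinning (23.4% and 18.4% before, median depths 2750.0 and 2478.5 UMIs), beside 4.50% and 5.32% of thinned Cd3e-gated cells, and 1 knockout cell held 15.5% of the member UMIs. Of the 6 members with at least 20 UMIs, 5 were at least 1.5-fold higher in the knockout library and 0 lower, against 23.3% and 17.3% of 6284 genes. In endothelial-like cells, 27 knockout and 51 control, the members had 1220 and 232 CPM, but 1 cell held 58.2% of these UMIs in the knockout and 66.0% in the control library, and the tumour marker list summed to 1186 and 109 CPM. Of 5 members with 20 UMIs, 5 were at least 1.5-fold higher and 0 lower, against 15.6% and 20.9% of 8025 genes.

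The other genes of the pathway were counted in the same classes. Of 41 listed genes, 36 had at least 20 UMIs in Arg1-high macrophage-like cells, where 3 were at least 1.5-fold higher and 1 lower, against 9.51% and 8.52% of all genes. The higher ones were Irf4, a lymphoid and myeloid interferon regulatory factor (8.18 CPM in the knockout and 3.21 CPM in the control library, on 14 and 12 UMIs), Rfx5, a subunit of the X box factor (6.43 and 2.68 CPM, on 11 and 10 UMIs), and Socs1, a feedback inhibitor of interferon signalling (26.3 and 14.2 CPM). The lower one was Nlrc5, the co-activator of MHC class I genes (29.2 and 44.2 CPM, -0.60, -1.08 to -0.13). It was opposite to Ciita in the same cells, on 50 and 165 UMIs. In Arg1-low macrophage-like cells (84.2 and 66.2 CPM, 0.35, 0.24 to 0.45) and tumour-like cells (122 and 91.3 CPM) Nlrc5 was higher in the knockout library, as Ciita was. Nlrc5 was level in monocyte-like cells (118 and 117 CPM). In Arg1-low macrophage-like cells 4 of 40 were higher and 0 lower, against 8.79% and 4.75% of all genes: Irf4 (6.73 and 3.91 CPM), Socs1 (34.7 and 21.1 CPM), and the genes of the class II receptors on T cells, Cd4 (5.00 and 2.47 CPM) and Lag3 (10.0 and 2.88 CPM). Cd3e, which marks T cells, was at 3.01 and 2.11 CPM there. In monocyte-like cells 0 of 37 were higher and 1 was lower, against 8.84% and 8.05% of all genes. The lower one was the lysosomal tetraspanin Cd63 (110.03 and 171 CPM). In tumour-like cells 5 of 39 were higher, among them Socs1 (42.7 and 26.5 CPM), and 3 were lower, among them the lysosomal proteases Lgmn (19.3 and 43.3 CPM) and Ctsd (161 and 266 CPM), against 14.9% and 7.99% of all genes. The shares of higher genes on the list were thus near those of all genes in both macrophage-like classes and in tumour-like cells.

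The 8 endosomal proteases and processing enzymes were within 1.5-fold in both macrophage-like classes. In Arg1-high macrophage-like cells their median log2 ratio was -0.13, with both directions among them: Ctss, the protease that trims the invariant chain, stood at 2576 CPM in the knockout and 2115 CPM in the control library (0.28), while Lgmn stood at 1024 and 1529.9 CPM (-0.58) and Ctsl at 992 and 1388 CPM (-0.49). In Arg1-low macrophage-like cells the median was 0.15, with Ctss at 2623 and 2279 CPM. Of the DNA-binding factors of the promoter module, Rfxank, Rfxap, Nfya, Nfyb and Nfyc were within 1.5-fold in both macrophage-like classes. Rfx5 was not, with a log2 ratio of 1.26 (-0.11 to 2.66) in Arg1-high macrophage-like cells. In Arg1-low macrophage-like cells Rfx5 stood at 6.73 CPM in the knockout and 4.81 CPM in the control library (0.48, 0.082 to 0.89).

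Across 27 pseudobulks, that is, classes in a library with at least 50 cells, the gene most like the summed members was Ifi30, a lysosomal thiol reductase of antigen processing (Pearson r = 0.963 of log2(CPM + 1)). Next were Rp2 (0.941), Htr7 (0.927), Gm6377 (0.918) and Dnase1l3 (0.905), out of 7791 genes. For Ciita, out of 15186 genes, they were Gm36486 (0.914), Ifi30 (0.909), Rp2 (0.897) and Fam117b (0.888). The other members had r between 0.906 (H2-DMb1) and 0.951 (H2-Ab1) with Ciita, except H2-Oa at 0.473. These points share libraries, and the same classes enter from both, so the coefficients describe the pattern over cell classes only.

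By source, Arg1-low macrophage-like cells and tumour-like cells gave 37.4% and 22.6% of member UMIs in the knockout library and 43.2% and 32.8% in the control library. Monocyte-like cells gave 10.5% and 2.95%, type 1 dendritic-like cells 6.31% and 2.14%, and type 2 dendritic-like cells 5.78% and 2.63%. Monocyte-like cells were 6.60% of knockout and 2.56% of control cells used, and tumour-like cells 33.6% and 45.7%. Because cells were sorted before loading and the loaded proportions are not stated, these shares are of the libraries and cannot be told apart from the sort.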

How the data were processed

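The deposited matrix holds whole-number UMI counts for 32285 genes, made by the authors with Cell Ranger 2.1.1 on mm10 per the submitters' processing notes, while the file header names version 6.0.1. The barcode suffix was matched to a library by the number in the labels alone. Cells under 500 UMIs or 200 genes, or above 20% mitochondrial UMIs, were left out. Doublets were called per library with Scrublet and removed. 2000 variable genes without class II genes, 30 principal components and 15 neighbours gave 41 Leiden clusters at resolution 2 (scanpy 1.11.5, igraph 0.11.9), and mixed ones were clustered again at resolution 1. Macrophage clusters with at least 2000 CPM of Arg1 were called Arg1-high.

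UMIs were summed by library and class and divided by the class total. Intervals are 95%: exact Poisson for levels and conditional binomial for ratios. Genes with at least 20 UMIs over both libraries were counted at 1.5-fold. The counting steps were tested on simulated data. The rule for named genes took all 9 members, and other pathway genes where they passed 1.5-fold in a macrophage-like or monocyte-like class. In neutrophil-like and endothelial-like cells the members are given mainly as a sum. Processing enzymes and promoter factors within 1.5-fold, and the genes of the tumour class, were named after their values were seen. For 0 UMIs the upper limit is 3 counts. Members and lists were chosen with earlier results of these data known. Scripts ran in Python 3.11.15 with scipy 1.17.1 for intervals, scikit-learn 1.9.0, pandas 2.3.3 and numpy 2.4.6 for tables, and matplotlib 3.10.9 for figures.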

Additional observations from a re-analysis of the deposited data

Results flagged for a closer look

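Ratios of 3 members stood on opposite sides of 0 in different cell classes by at least 1.5-fold in each direction, and the difference between the classes was not tested. H2-Ab1 had log2 ratios, knockout over control, of 0.73 in Arg1-high macrophage-like cells, 0.62 in neutrophil-like cells and 2.48 in endothelial-like cells, against -0.77 in plasmacytoid-like cells. H2-Eb1 had 0.63, 1.69 and 1.93 in the same 3 classes and -1.17 in plasmacytoid-like cells. H2-DMb1 had 0.67 in Arg1-high macrophage-like cells and 3.09 in endothelial-like cells, against -1.49 in plasmacytoid-like cells. The endothelial-like values rest on 27 knockout and 51 control cells, and 1 knockout cell held 76.7% of the H2-Ab1 UMIs there.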

How the results depend on the processing

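Summed log2 ratios are given for Arg1-high, Arg1-low, monocyte-like and tumour-like cells in this order, reported at 0.52, 0.40, 0.20 and -0.10. With at least 2000 UMIs and at most 10% mitochondrial UMIs per cell they were 0.57, 0.44, 0.32 and -0.17. With doublets kept they were 0.37, 0.42, 0.52 and -0.19. At Leiden resolution 3 they were 0.36, 0.39, 0.14 and -0.17, and at resolution 1, where no Arg1-high class formed, 0.45, 0.38 and -0.11 for the other classes. A gate on single cells gave 0.50, 0.38, 0.62 and -0.19. A mean over cells gave 0.49, 0.50, 0.16 and, with the sign turned, 0.067. Centring on all genes gave 0.41, 0.17 and -0.19 in Arg1-low, monocyte-like and tumour-like cells, and leaving out Cd74 gave 0.64, 0.51, 0.26 and -0.32. Without the top cell of each library the monocyte-like ratio was 0.24. After the data had been seen, means over single clusters were added, at 0.15 in Arg1-low, -0.18 in monocyte-like and 0.042 in tumour-like cells, both of these with the sign turned, and without cluster 25 the Arg1-low ratio was 0.38. At 2-fold, 1 member was higher in Arg1-high and 0 in Arg1-low cells, and with no minimum 1 in monocyte-like cells.

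Signs also turned for the summed ratio in mature dendritic-like cells with the gate on single cells (0.086) and in type 1 dendritic-like cells with doublets kept (-0.00030), that gate (-0.082) and centring (-0.0028). That gate turned H2-Aa (0.015) and Cd74 (0.24) in mature, and H2-Aa (-0.051) and H2-Eb1 (-0.095) in type 1 dendritic-like cells. Its mature class held 588 knockout and 1005 control cells, of which 3.89% were in the reported class. The cause of the other changes was not tested. No paired analysis was possible because each group was 1 library. Small control classes and low H2-Oa counts limit precision, and the spread between tumours was not measured.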

Other observations

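Cells between the macrophage and monocyte gates, 217 in the knockout and 148 in the control library, had 24866 and 19869 CPM of the members together, a log2 ratio of 0.32 (0.31 to 0.34). Ciita stood there at 150 CPM in the knockout and 84.3 CPM in the control library (0.83, 0.56 to 1.10), H2-DMb1 at 751 and 518 CPM (0.54), and Cd74 at 9435 and 8195 CPM (0.20). Fibroblast-like cells had 227 CPM in the knockout and 410 CPM in the control library, with 1 cell holding 24.8% and 38.1% of these UMIs. NK cell-like cells had 18 H2-Oa UMIs in the knockout and 0 in the control library, which allows up to 2.85 CPM (3 counts over the class total).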
